A study of Mus musculus with 12 samples.

Results

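Isoprenaline (Iso) activates the beta-adrenergic receptors of the heart, and its effect on gene expression was followed here in ventricular myocytes of adult mice that lack CaMKII delta and CaMKII gamma (double knockout, DKO). The comparison took the 3 arrays of DKO myocytes treated with 100 nM Iso for 24 h and the 3 arrays of untreated DKO myocytes, which are 6 of the 12 arrays of the series. The other 6 arrays hold the same treatment in myocytes of wild-type (WT) mice. Each of 3 DKO mice and 3 WT mice gave 1 untreated and 1 treated array, so the replicates are separate animals. The untreated DKO myocytes carry both deletions too, and they were cultured as well. The series asked whether phosphorylation of histone H3 at serine 28 under Iso goes with changes in expression in myocytes with and without CaMKII. The arrays measure RNA and not that mark. The sources used here do not say which promoter or Cre line made the deletions.

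Beta-adrenergic receptors couple to the stimulatory G protein, which raises cyclic AMP and activates protein kinase A. That kinase speeds calcium cycling and contraction, and it phosphorylates CREB, a transcription factor that binds cAMP response elements in promoters. CaMKII is activated by calcium and calmodulin downstream of the same receptors. It phosphorylates calcium-handling proteins and class IIa histone deacetylases, which otherwise repress MEF2 transcription factors, and it can phosphorylate serine 28 of histone H3, next to a lysine that Polycomb complexes methylate.

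Expression is given as log2 values, in which a difference of 1 is a doubling. Of 24704 genes, the 13737 that exceeded the array median on 3 or more of the 12 arrays were tested. Untreated DKO array 3 stood apart. The root mean square of its residuals around the group means was 0.374, against 0.226 and 0.277 on the other untreated DKO arrays and 0.153 to 0.155 on the treated ones. The main results are therefore given with and without this array. The cells carried the profile of ventricular myocytes: the 17 myocyte markers measured, among them Myh6, Myl2 and Tnnt2, lay at or above the 96.2th percentile of all genes on each DKO array. The leukocyte antigen Ptprc was dim at 2.92 to 3.10, but 27 of 36 macrophage and leukocyte markers were bright enough to test. The antigen presentation gene Cd74 read 7.23 to 8.48. The endothelial gene Cdh5 read 8.18 to 8.88 and the fibroblast gene Dcn 10.12 to 10.72. RNA of other cells was thus present, and in bulk RNA fewer cells of a type and less RNA per cell cannot be told apart. Camk2g read 3.57 to 4.20 on the 6 DKO arrays and 4.78 to 5.80 on the 6 WT arrays. Camk2d read 7.36 to 7.98 in DKO and 7.94 to 8.42 in WT. Whether its probe set lies in the deleted part of the gene was not determined here.

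With Iso, 6 genes rose and 1 fell in DKO myocytes (limma, adjusted p under 0.05), or 0.0437% and 0.00728% of the genes tested, 0.051% in all. The 4 with a proper name were the transcriptional regulator Tcf20, the heme enzyme Cpox, the collagen receptor Gp6 and the mitochondrial assembly factor Sco2. At an unadjusted p under 0.05 there were 2527 genes (18.4%), of which 1299 (9.46%) lay higher and 1228 (8.94%) lower with Iso. The 3 treated arrays lay above all 3 untreated arrays for 1484 genes (10.8%) and below them for 1470 (10.7%), so the groups did not overlap for 21.5% of genes. The count of 7 rests on single arrays: it was 2 and 605 without untreated DKO array 1 and 2, 0 without treated array 1 or 2, and 2 to 4 without 1 of the untreated WT arrays.

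Tcf20 (Entrez gene 21411) encodes a large nuclear coactivator. It read 6.78, 7.10 and 6.81 on the untreated arrays and 7.99, 8.03 and 7.76 on the treated arrays of mice 1 to 3. The groups were well apart, and each mouse gained about as much as the next. The rise was 2.04-fold (log2 difference 1.03, SE 0.13, adjusted p = 0.0168), with 1.20, 0.94 and 0.96 within the 3 mice. Tcf20 had the same mean in both WT groups, 7.49 and 7.51, which lie between the DKO means of 6.90 ± 0.175 and 7.93 ± 0.145 (SD, n = 3). The call for Tcf20 was lost without untreated DKO array 1 (adjusted p = 0.0674), treated array 1 (0.117) or treated array 2 (0.154).

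Cpox (Entrez gene 12892), coproporphyrinogen oxidase, carries out a late step of heme synthesis in mitochondria. It read 5.66, 5.85 and 5.67 on untreated arrays and 7.17, 6.98 and 6.81 after Iso, with no overlap. The rise was 2.39-fold (1.26, SE 0.16, adjusted p = 0.0190) and came to 1.51, 1.13 and 1.13 in the 3 mice. In WT the means of Cpox were 6.31 untreated and 6.26 treated. Its call was lost without the same 3 arrays as that of Tcf20, with the same adjusted p values, and also without untreated WT array 3 (0.0534).

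Sco2 (Entrez gene 100126824) was the gene that fell. Its protein delivers copper to cytochrome c oxidase, the last complex of the respiratory chain. It read 9.84, 9.58 and 10.23 without Iso against 8.71, 8.23 and 8.70 with Iso, so the highest treated value lay well below the lowest untreated value. The untreated level was 2.53-fold the treated level (-1.34, SE 0.19, adjusted p = 0.0275), and the difference was smaller without untreated array 3 (-1.16, adjusted p = 0.0251). In WT, Sco2 also lay lower with Iso by -0.56, and the difference between genotypes did not pass (-0.78, adjusted p = 0.394). The call for Sco2 was lost without untreated DKO array 1 (0.0674), any 1 treated DKO array (0.0624 to 0.205) or any 1 untreated WT array (0.0572 to 0.0661).

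Gp6 (Entrez gene 243816) encodes glycoprotein VI, through which platelets bind collagen. It was dim without Iso, at 3.15, 2.94 and 2.89, and read 3.79, 4.00 and 4.25 with Iso (2.03-fold, adjusted p = 0.0275). When mouse was fitted as a block, the adjusted p of Gp6 was 0.0678. Its call was also lost without untreated DKO array 1, any 1 of the treated DKO arrays or untreated WT arrays, or treated WT array 1 (adjusted p 0.0570 to 0.205). Of 11 platelet and erythroid genes tested, 3 lay above 0 and 8 below, so Gp6 did not have the direction of most of that list. Beside it, the beta-globin gene Hbb-bt read 9.62, 9.29 and 10.77 untreated and 8.22, 7.70 and 8.64 treated (-1.70, adjusted p = 0.0700), the reverse direction. Without untreated array 3 the difference of Hbb-bt was -1.27 (adjusted p = 0.0903).

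The other 3 genes that passed have no proper name. Gm12295, a long non-coding RNA, rose most clearly, from 5.73, 6.27 and 6.27 to 7.40, 7.67 and 7.43 (2.66-fold, adjusted p = 0.0109). It lay 0.60 higher with Iso in WT, and its call was lost only without treated DKO array 1 (0.0666) or 2 (0.125) among the single arrays left out. Gm26615, also a long non-coding RNA, rose most in size, from 2.61, 3.34 and 3.37 to 5.55, 5.33 and 4.54 (4.09-fold, adjusted p = 0.0275). It was dim without Iso, near or below the array median of 3.32, and rose by 2.94, 1.99 and 1.17 in the 3 mice. The protein-coding gene 1110002E22Rik rose by 0.78 (SE 0.11, adjusted p = 0.0275), nearly alike in the 3 mice at 0.77, 0.82 and 0.76. In the fit that blocks on mouse, in which 0.0728% of genes passed, the adjusted p was 0.0664 for Gm26615 and 0.0678 for 1110002E22Rik. Both were also lost without untreated DKO array 1, treated DKO array 1 or 2, untreated WT array 3 or treated WT array 3 (0.0527 to 0.266), and 1110002E22Rik without treated DKO array 3 or untreated WT array 1 or 2 (0.0572 to 0.0624).

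**Figure D1:**
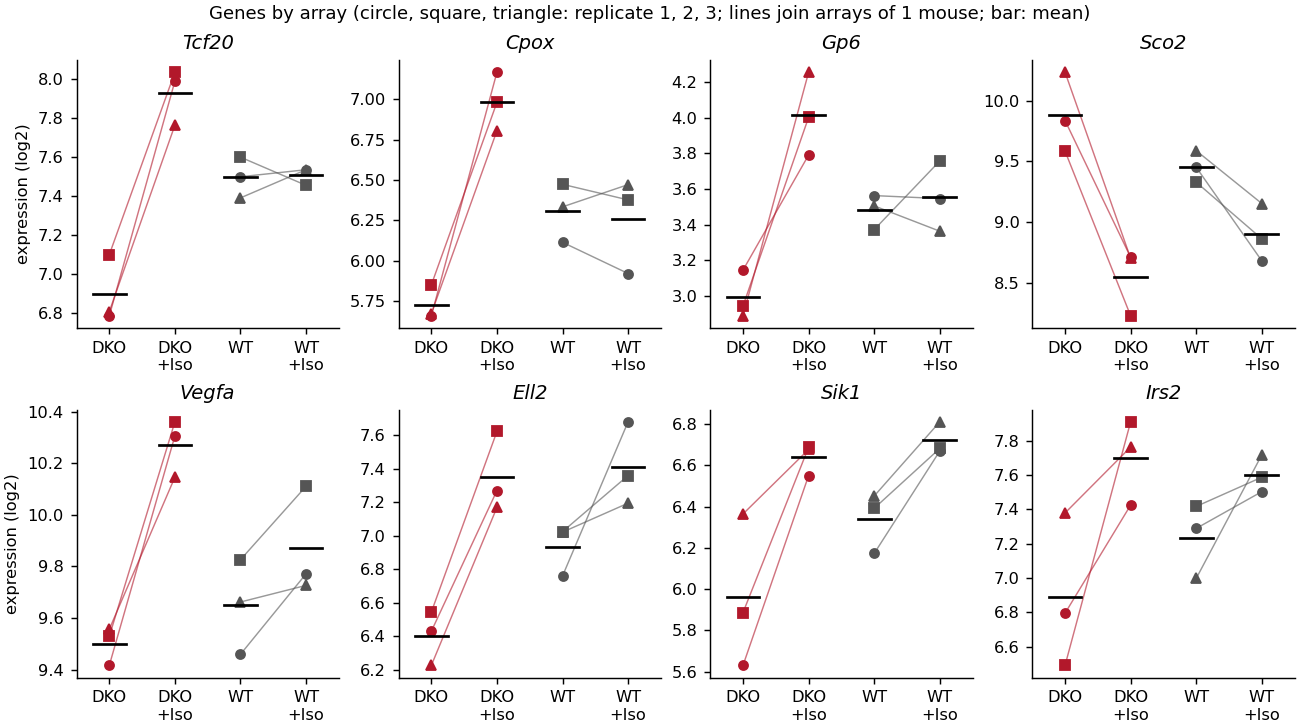
Log2 expression (vertical axis) of 8 genes on each of the 12 arrays, by group (horizontal axis), with a point per array and a bar at each group mean. In DKO, the treated arrays of Tcf20, Cpox and Gp6 lie above the untreated ones and those of Sco2 below; the untreated point of mouse 3 lies highest of its group for Sik1 (6.36) and Irs2 (7.38).

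Untreated DKO means of Tcf20, Cpox, Gp6, Gm12295, Gm26615 and 1110002E22Rik lay below the untreated WT means, and the untreated DKO mean of Sco2 lay above it. For Gp6 the 4 means were 2.99 and 4.02 in DKO, untreated and treated, and 3.48 and 3.56 in WT. For 1110002E22Rik they were 6.16 and 6.94 in DKO and 6.71 and 6.76 in WT. Since the untreated DKO arrays enter both this baseline and the Iso difference, the baseline is no separate observation.

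Without untreated DKO array 3, 31 genes passed (0.226%), 19 higher (0.138%) and 12 lower (0.0874%), and the 7 genes above were among them. At an unadjusted p under 0.05, 7.65% of genes then lay higher and 7.32% lower. With the mouse as an added term and array 3 left out, treated array 3 lacks its pair, and the difference rests on mice 1 and 2. In that fit 32 genes passed (0.233%), but only 12 of the 31 were among them, so 19 of these calls were lost. Of the genes named next, Mir467c, Mir210 and Eif1ad kept the call (adjusted p = 0.0295, 0.0208 and 0.0250), and the others had an adjusted p of 0.0683 for Chid1 to 0.124 for Irs2. Sik1, a kinase induced by cyclic AMP and CREB, read 5.63 and 5.89 on untreated arrays 1 and 2 and 6.55, 6.69 and 6.68 with Iso (0.88, adjusted p = 0.0230). Untreated array 3 read 6.36, and with it the difference was 0.68 (adjusted p = 0.0871). Irs2, the insulin receptor substrate that CREB also induces, read 6.80 and 6.49, then 7.42, 7.91 and 7.76 with Iso (1.05, adjusted p = 0.0316). Its array 3 read 7.38, and with it the difference was 0.81 (adjusted p = 0.0935). For both genes array 3 was the highest untreated array and still lay below all treated arrays.

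Also higher without that array were the ubiquitin-conjugating enzyme Ube2d1 (0.85, adjusted p = 0.0230), the ubiquitin ligase Cblb, which restrains receptor tyrosine kinases (0.78, 0.0272), and the arginine methyltransferase Carm1 (1.16, 0.0175). Carm1 read 7.17 and 7.27 on untreated arrays 1 and 2 but 8.62 on array 3, above all treated arrays at 8.51, 8.22 and 8.39. With array 3 its groups overlapped and its difference was 0.69 (adjusted p = 0.241). Probe sets named for the microRNA genes Mir467c (1.22, 0.0162) and Mir210 (1.25, 0.0230) rose as well. Mir210 gives a microRNA known from the response to low oxygen, and the sequences of its mature forms are shown because this locus rose without array 3. They are from RefSeq (GRCm38.p6), with the seed, bases 2 to 8, in capitals.
miR-210-3p (chr7:141221407-141221428, minus strand): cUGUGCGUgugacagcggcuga
miR-210-5p (chr7:141221445-141221466, minus strand): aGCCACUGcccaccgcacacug
The seeds of the 2 arms differ. Which transcript the probe set detects, the primary transcript or a mature form, was not determined here. Mir210 read 5.72 and 5.98 on untreated arrays 1 and 2, 7.06 on array 3, and 7.19, 7.39 and 6.71 with Iso, so its groups overlapped when array 3 was included (0.84, adjusted p = 0.154).

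Of the 12 genes that fell without array 3, Coq9, needed for coenzyme Q synthesis, read 11.47 and 11.62 without Iso, 11.06 on array 3, and 10.56, 10.45 and 10.70 with Iso (-0.97, adjusted p = 0.0230, and -0.81, adjusted p = 0.0620, with array 3). Lipa, the lysosomal acid lipase, differed by -1.40 (adjusted p = 0.0425) and by -1.16 (0.0751) with array 3. Its 3 untreated arrays spread from 5.64 to 6.80. The mitochondrial deoxyguanosine kinase Dguok fell by 0.88 on the log2 scale (adjusted p = 0.0316). With array 3, at 5.11 close to the highest treated value of 5.10, Dguok differed by -0.62 (adjusted p = 0.136). The retinoid receptor Rxrg fell by 0.89 (0.0316), and differed by -0.76 (0.0647) with array 3. Chid1, a chitinase-domain protein, fell by 0.88 (0.0409), Wdr74, a factor of ribosome assembly, by 1.12 (0.0351) and the complement subunit C1qa by 0.76 (0.0456). These last 3 were close to the threshold with all arrays: -0.89 and -1.08 with an adjusted p of 0.0536 for Chid1 and Wdr74, and -0.75 with 0.0607 for C1qa.

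The calls of some genes rested on leaving array 3 out. Eif1ad read 6.20, 6.15 and 4.92 untreated and 5.05, 4.57 and 4.73 treated, Rnf5 6.71, 6.77 and 5.45 against 5.34, 5.25 and 5.45, and Ighv14-1 6.51, 6.90 and 4.76 against 5.44, 5.03 and 5.29. In none of them did untreated array 3 exceed the highest treated array, and for Ighv14-1 it lay below all of them. They passed without it (-1.39, -1.40 and -1.45, adjusted p = 0.0162, 0.0230 and 0.0316) and did not with it (adjusted p = 0.118, 0.138 and 0.331).

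**Figure D2:**
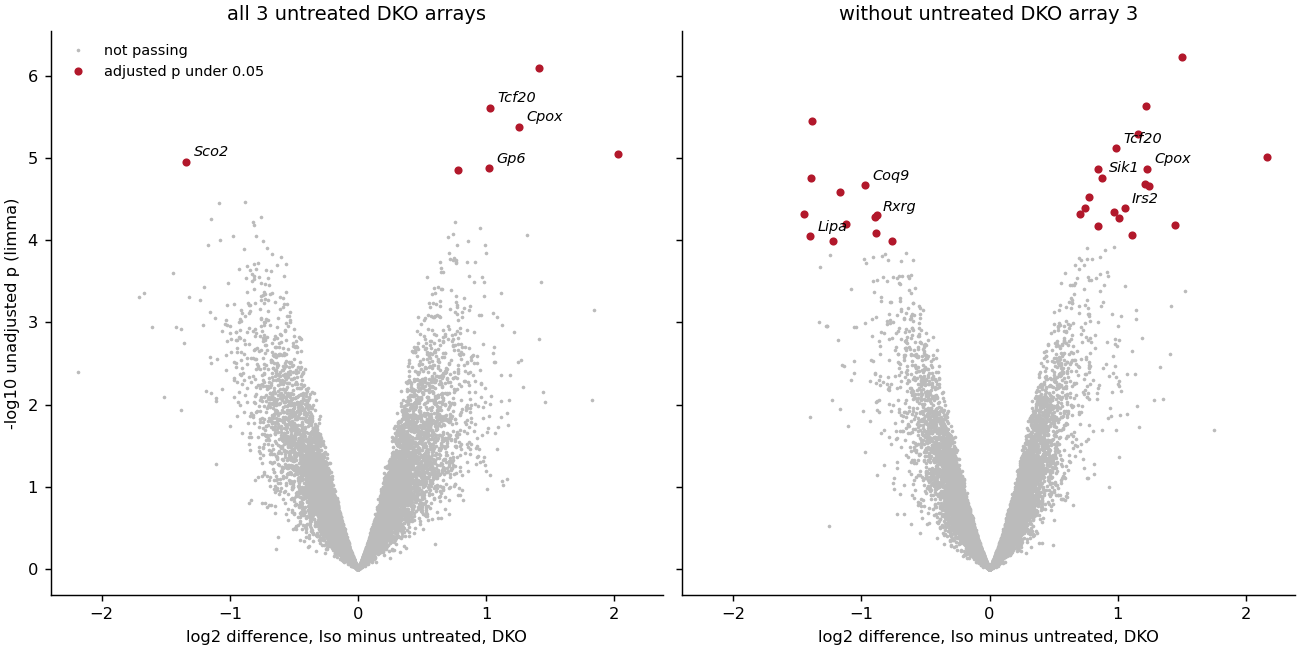
Log2 difference, Iso minus untreated in DKO (horizontal axis), against -log10 of the unadjusted limma p (vertical axis) for the 13737 genes tested, with all arrays (left) and without untreated DKO array 3 (right). Red points passed at an adjusted p under 0.05, 7 on the left and 31 on the right.

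The genes next in p with all 3 untreated arrays did not pass, with adjusted p at 0.0536 to 0.0607. Higher with Iso were the transcription factor Vezf1 (0.76), the elongation factor Ell2 (0.95), Ube2d1 (0.74), Lrrfip1 (0.70), the methyltransferase-like gene Mettl7a3 (0.99), the immunoglobulin segment Igkv4-68 (0.86) and Vegfa (0.77). Vegfa, the main growth factor of blood vessels, read 9.42, 9.53 and 9.56 untreated and 10.31, 10.36 and 10.15 treated, and its spread within groups was small (SD 0.0745 and 0.112). Ell2, a subunit of the super elongation complex, read 6.43, 6.54 and 6.23 against 7.27, 7.62 and 7.17. In WT, Ell2 lay 0.48 higher with Iso and Vegfa 0.22. Lower with Iso, beside Chid1, Wdr74 and C1qa, were the trafficking subunit Trappc6a (-1.15), Nprl2, a brake on mTORC1 (-0.82), Tmem53 (-0.81), Nudt6 (-0.80), the RNase P subunit Rpp21 (-1.08) and the DNA repair subunit Shld1 (-0.74). For each of these genes, picked by their small p, the treated arrays lay beyond all untreated arrays.

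In this and the later lists, counts at an unadjusted p under 0.05 stand beside the shares of all genes. Those were 9.46% higher and 8.94% lower, and 7.65% and 7.32% without untreated array 3. CREB is the usual link from cyclic AMP to transcription, so its targets and the immediate early genes were listed. Of 51 tested, none passed, 6 lay higher and 8 lower at an unadjusted p under 0.05, and the median was -0.07 (all genes 0.01). Without untreated array 3 the median was 0.03, with 8 higher and 6 lower, and Sik1 and Irs2 passed. The orphan nuclear receptor Nr4a1 read 7.10, 6.97 and 7.39 untreated and 7.71, 7.47 and 7.79 treated (0.50, SE 0.16, adjusted p = 0.133), higher in each mouse. The repressor Nfil3 differed by 0.54 (adjusted p = 0.0969). The AP-1 member Junb read 7.87, 7.45 and 8.33 against 7.33, 7.03 and 7.26 (-0.68, adjusted p = 0.104) and Egr1 lay lower by -0.44 (0.109). Crem, Fos and Per1 differed by 0.02, 0.02 and 0.13, with array 3 the highest untreated array for Fos and Per1 at 5.58 and 6.46. With the gene length trend removed, as described further on, they differed by -0.10, 0.15 and 0.16. When array 3 was left out as well, these values were -0.14, 0.30 and 0.47, and none passed. Ppargc1a, the coactivator of mitochondrial genes, differed by 0.40 (0.263). The list thus held members on both sides at 24 h, and their median was not far from that of all genes.

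Promoters were searched for the palindromic cAMP response element (CRE), TGACGTCA, and for its shorter core, TGACG or the reverse complement CGTCA, in the RefSeq windows around gene starts (GRCm38.p6). Both strands count, and each CRE also holds the core. The CRE was present in 1.79% of 32851 promoters and the core in 20.8%, and in 3.15% and 33.2% of the 10475 tested genes with a promoter in the table. Of 6 passing genes with a promoter, 0 had the CRE and 2 had the core, Cpox and Sco2. Of 39 genes of the CREB and immediate early list, 4 had the CRE and 23 the core (10.3% and 59.0%). The stretches with matches in Cpox and Sco2, which passed, and in Ell2 and Nr4a1, which hold several, are shown with matches in capitals.
Cpox (chr16:58670000-58670084, plus strand): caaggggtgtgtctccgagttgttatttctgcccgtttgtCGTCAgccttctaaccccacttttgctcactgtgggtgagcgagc
Sco2 (chr15:89374042-89374126, minus strand): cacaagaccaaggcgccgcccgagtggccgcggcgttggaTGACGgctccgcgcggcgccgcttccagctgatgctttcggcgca
Ell2 (chr13:75707271-75707342, plus strand): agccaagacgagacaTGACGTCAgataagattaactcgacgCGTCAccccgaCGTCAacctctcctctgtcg
Nr4a1 (chr15:101266598-101266825, plus strand): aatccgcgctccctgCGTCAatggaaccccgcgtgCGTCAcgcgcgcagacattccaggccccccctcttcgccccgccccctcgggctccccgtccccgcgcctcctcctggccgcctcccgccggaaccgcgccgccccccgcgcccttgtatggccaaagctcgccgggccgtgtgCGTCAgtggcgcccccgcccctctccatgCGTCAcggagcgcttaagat
Cpox rose and Sco2 fell with 1 core each, and Ell2 has 1 CRE with 2 further cores. Of the genes followed here, Dguok, Ndufa11, H2-Aa and Mcam also hold the CRE. Each of these lay lower with Iso (-0.62, -0.64, -0.42 and -0.23). A match describes these letters, and binding was not measured.

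Receptors, G proteins and protein kinase A were followed as a list of 39 tested genes. None passed, 5 lay higher (12.8%) and 3 lower (7.69%) at an unadjusted p under 0.05, and the median was -0.01. Without array 3 the counts were 3 higher and 5 lower, 26 in place of 18 lay above 0, and the median was 0.06. The inhibitory G protein subunit Gnai1 had the smallest p of the list, reading 4.88, 4.88 and 4.81 without Iso and 4.42, 4.17 and 4.23 with Iso (-0.58, SE 0.13, adjusted p = 0.0714). It differed by 0.03 in WT. Popdc2, a cyclic AMP-binding membrane protein of muscle, lay lower (10.41, 10.52 and 10.49 against 10.01, 10.06 and 10.19), and so did the protein kinase A inhibitor Pkig (-0.47, and -0.28 without array 3), while the anchoring protein Akap8 lay higher (0.42). Of 15 phosphodiesterases, which degrade cyclic nucleotides, 0 passed or reached an unadjusted p under 0.05 in limma's test, and the median was 0.09. Without array 3, 2 reached it, both higher, and the median was 0.17. Pde4b differed by 0.27 (adjusted p = 0.353) with overlap, and by 0.38 (0.231) without array 3 and without overlap. Pde4d differed by 0.23 (0.315). Rgs2, a brake on G protein signalling, differed by 0.20 (0.547).

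Contraction and calcium cycling were followed as separate lists. Of 61 sarcomere, Z-disc and costamere genes none passed, but 45 lay above 0, 14 lay higher (23.0%) and 5 lower (8.20%) at an unadjusted p under 0.05, and the median was 0.20 (0.13 without array 3). Titin (Ttn), the spring of the sarcomere, read 10.73, 10.78 and 10.30 untreated and 11.50, 11.69 and 11.23 treated (0.87, SE 0.20, adjusted p = 0.0742). Dystrophin (Dmd) differed by 0.77 (0.0714) and tropomodulin 1 (Tmod1), which caps actin filaments, by 0.58 (0.0757). The list was not uniform, since Sgca, alpha-sarcoglycan, read 10.06, 10.09 and 10.33 against 9.53, 9.42 and 9.51 (-0.68, adjusted p = 0.0615). Among the myosin chains, Myh6 differed by 0.27 (0.267) and Myh7 by -0.04.

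Of 34 genes of the sarcoplasmic reticulum and calcium cycling none passed, 20 lay above and 14 below 0, 12 lay higher (35.3%) and 3 lower (8.82%), and the median was 0.11 (0.12 without array 3). The ryanodine receptor Ryr2, the calcium release channel, read 10.28, 10.23 and 9.96 untreated and 10.81, 10.96 and 10.63 treated (0.64, SE 0.14, adjusted p = 0.0714). Its partner triadin (Trdn) differed by 0.75 (0.117) and the glycogen-targeting phosphatase subunit Ppp1r3a by 0.81 (0.0757). For both, untreated array 3 was the lowest array, at 7.36 and 6.22, and without it the differences were 0.50 and 0.55. The calcium pump Atp2a2 read 12.71, 12.71 and 12.09 untreated and 12.89, 13.02 and 12.82 treated (0.40, adjusted p = 0.200, and 0.20 without array 3). Its inhibitor Pln differed by 0.20 (0.474). In WT, where 3.46% of all genes lay higher and 3.24% lower, the same 34 genes had 6 higher and 1 lower, with a median of 0.07.

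MEF2 factors and the class IIa deacetylases, the axis through which CaMKII is known to act on transcription, had the highest median of the 36 lists, 0.29 with all arrays and 0.30 without array 3. None of the 8 passed, while 4 lay higher (50%) at an unadjusted p under 0.05, against 9.46% of all genes. Mef2a read 8.98, 9.40 and 8.79 untreated and 9.84, 9.93 and 9.54 treated (0.71, SE 0.17, adjusted p = 0.0845). Mef2c read 5.74, 5.69 and 5.44 against 6.08, 6.18 and 6.05 (0.48, 0.0871), Hdac4 differed by 0.35 (0.141) and Hdac9 by 0.34 (0.195). For these 4 genes, picked by their small p, the treated arrays lay above the untreated ones, as for 10.8% of all genes. Hdac5 differed by -0.16 with overlap. Over the same 8 genes the WT median was 0.01. Protein phosphorylation or location was not measured. Of the 12 calmodulin kinase genes and partners tested, 2 lay higher (16.7%, all genes 9.46%) and 0 lower. The 2 were Calm2 (0.36, adjusted p = 0.147) and Camk1g (0.33). Without array 3, 4 lay higher and 0 lower (all genes 7.65% and 7.32%), and the median was 0.10 in place of 0.09. With all arrays, Camk2d and Camk2g differed by 0.11 and -0.01.

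Polycomb subunits and kinases of histone H3 serine 28 were listed because the series asked about that mark. Of 35 tested none passed, 7 lay higher (20%, all genes 9.46%) and 2 lower (5.71%, all genes 8.94%). The median was 0.13 (0.09 without array 3). Eed, the core subunit that reads methylated lysine, read 7.19, 6.96 and 6.86 untreated and 7.63, 7.56 and 7.27 treated (0.49, adjusted p = 0.104). The accessory subunit Jarid2 read 4.68, 4.72 and 4.74 against 5.38, 5.14 and 4.92 (0.43, 0.137), while the histone-binding subunit Rbbp7 differed by 0.64 with array 3 and 0.33 without it. The deubiquitinase Bap1, which opposes Polycomb, lay lower (-0.42, 0.141). Transcripts of Polycomb subunits say nothing of the mark itself.

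Nuclear genes of mitochondria were split by role. Of 72 mitochondrial ribosomal protein genes none passed, 49 lay below 0, 19 lay lower and 4 higher at an unadjusted p under 0.05, and the median was -0.21 (-0.14 without array 3, with 13 lower and 0 higher). Mrpl4 read 8.47, 8.30 and 9.11 untreated and 7.82, 7.67 and 7.96 treated (-0.81, adjusted p = 0.0845). Mrpl12, Mrpl38 and Mrpl2 lay lower by -0.65, -0.68 and -0.50 (-0.42, -0.45 and -0.41 without array 3). In all 4, untreated array 3 was the highest, and the treated arrays lay below the untreated ones. The median over WT was -0.10, with 4 lower.

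Of 29 assembly factors of cytochrome c oxidase, Sco2 fell. At an unadjusted p under 0.05, 9 including it lay lower (31%, all genes 8.94%) and 0 higher. The median was -0.07 (-0.10 without array 3, with 7 lower and 0 higher). In WT the median was -0.06, with 3 lower and 0 higher. Coa4 read 5.45, 5.05 and 5.67 against 4.44, 4.57 and 4.60 (-0.85, adjusted p = 0.0714), and Coa3 lay lower by -0.62 (0.0913) and Cox19 by -0.68 (0.121). Without array 3, Coa4, Coa3 and Cox19 differed by -0.71, -0.43 and -0.50. The 71 subunits of oxidative phosphorylation had 8 lower (11.3%) and 1 higher (1.41%) and a median of -0.07. Without array 3 the median was -0.02, and with the gene length trend removed, as described further on, it turned to 0.04, with 4 higher and 6 lower. Those lower with all arrays included Ndufb11 (-0.88, adjusted p = 0.0913) and Atp5d (-0.74, 0.0883).

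Heme and iron genes formed a further list. Of 33 tested, Cpox rose. At an unadjusted p under 0.05, 10 lay lower (30.3%, all genes 8.94%) and 2 higher (6.06%, all genes 9.46%). Without array 3 the counts were 8 lower and 1 higher, and the median was -0.105 in place of -0.135. Urod, the step before Cpox in heme synthesis, and Alad, an early step, lay lower. Urod read 9.62, 9.49 and 9.68 untreated and 8.96, 8.86 and 9.07 treated (-0.63, SE 0.12, adjusted p = 0.0612), and Alad 8.66, 8.42 and 9.35 against 7.94, 7.77 and 8.21 (-0.84, adjusted p = 0.101). Without array 3 they differed by -0.60 and -0.57 (adjusted p = 0.0757 and 0.175). In WT they differed by 0.07 and 0.48. Cpox thus had the reverse direction of Urod and Alad in the same 3 mice.

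Of 41 genes of glucose uptake and glycolysis none passed, 7 lay higher (17.1%) and 0 lower, and the median was 0.07 (0.02 without array 3, with 8 higher and 1 lower). Phka1, a regulatory subunit of phosphorylase kinase, read 4.72, 4.83 and 4.40 untreated and 5.46, 5.43 and 5.35 treated (0.77, adjusted p = 0.0607), and the glycogen-branching enzyme Gbe1 differed by 0.55 (0.0969). Of 44 genes of fatty acid uptake and oxidation none passed, 8 lay higher (18.2%) and 6 lower (13.6%), and the median was 0.09. Without array 3 the counts were 5 and 2, and the median was 0.0087. The kinase Pdk4, which holds back pyruvate oxidation, read 10.97, 11.08 and 10.89 against 11.44, 11.54 and 11.30 (0.44, adjusted p = 0.0962) and differed by 0.40 in WT too. Malonyl-CoA decarboxylase, Mlycd, lay lower (-0.73, 0.0819).

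Of 38 genes of endoplasmic reticulum stress and heat shock none passed, 21 lay above 0, and 7 lay higher (18.4%) and 3 lower (7.89%). The largest difference was that of Hsph1, a large heat shock protein, at 7.76, 7.91 and 6.92 against 8.32, 8.40 and 8.11 (0.75, adjusted p = 0.113, and 0.44 without array 3). The inducible Hsp70 gene Hspa1b read 9.28, 9.34 and 9.38 against 9.98, 10.12 and 9.85 (0.65, adjusted p = 0.0993) and Hspa1a 11.64, 11.69 and 11.41 against 12.09, 12.10 and 12.03 (0.49, 0.141). These near-identical copies may share probes. Of 37 NRF2 target and glutathione genes 1 lay higher (2.70%) and 5 lower (13.5%), among them Gstp1 (6.84, 6.30 and 6.92 against 5.55, 4.40 and 5.77; -1.45, adjusted p = 0.0620), Gpx1 (-0.62, and -0.41 without array 3) and Hmox1 (-0.50). Gstp1 passed in the fit that blocks on mouse (adjusted p = 0.0373). Among hypertrophy genes, Nppa and Nppb differed by -0.35 (0.406) and -0.01, Acta1 by -0.32 (0.180), Ankrd1 by 0.54 (0.173, and 0.33 without array 3) and Xirp2 by 0.87 (0.0717).

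**Figure D3:**
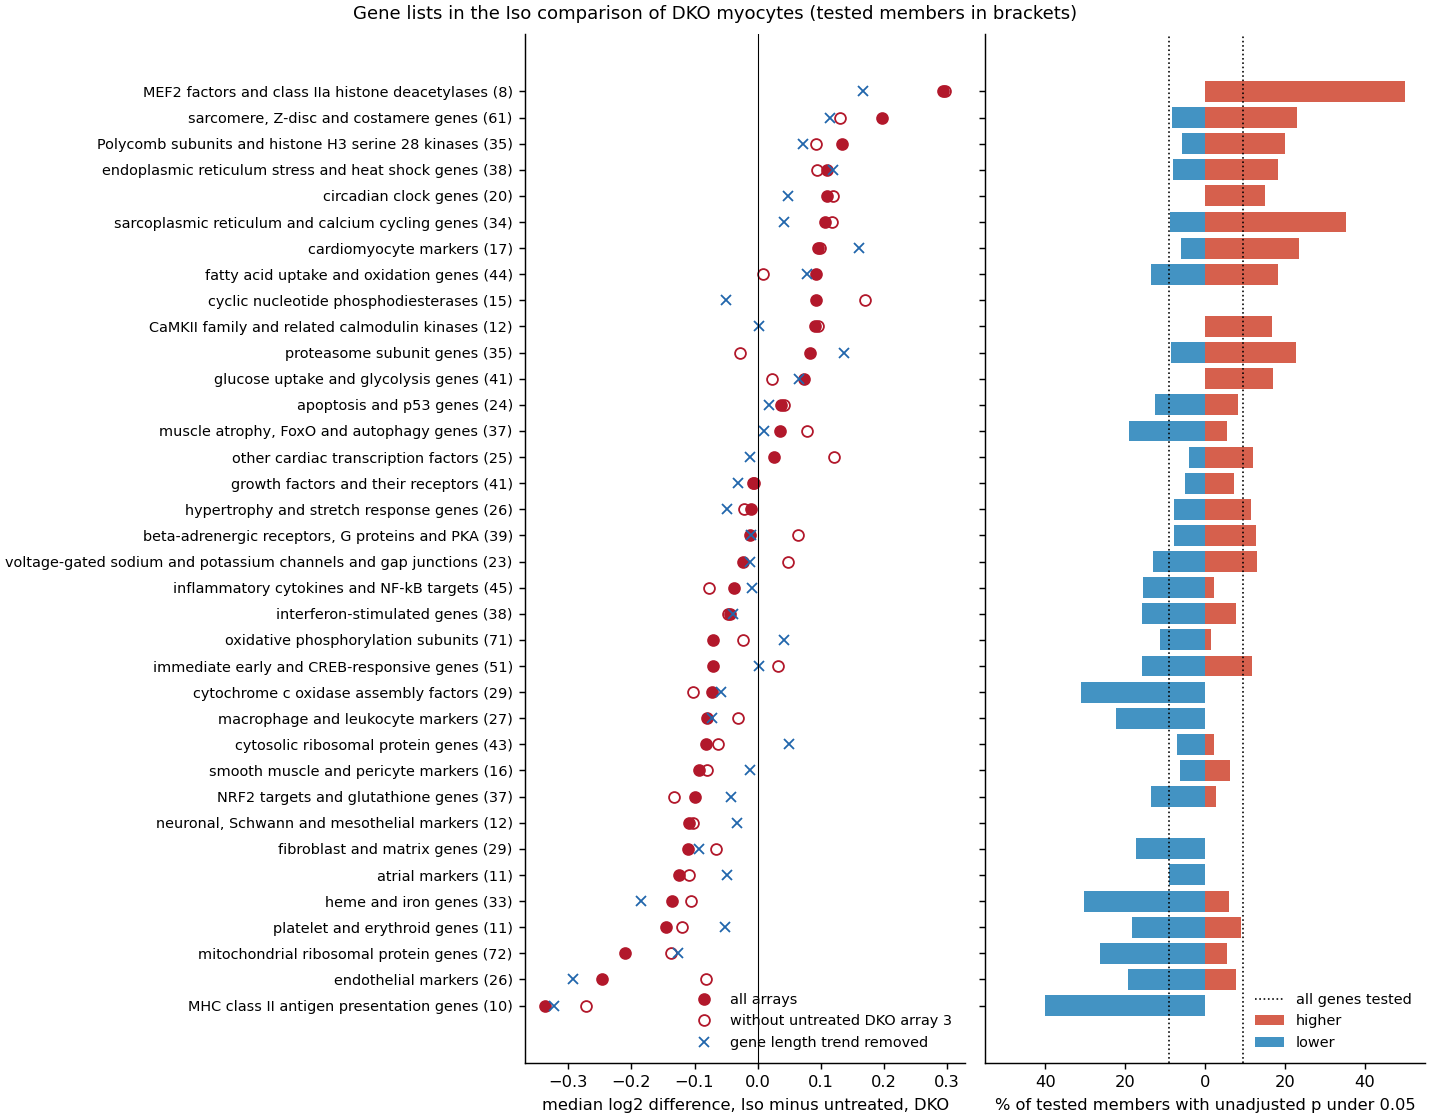
For 36 gene lists, the median log2 difference in DKO (left; filled circles all arrays, open circles without untreated array 3, crosses with the gene length trend removed) and the share of tested members with an unadjusted p under 0.05 in each direction (right; dotted lines mark 9.46% and 8.94% over all genes). The MEF2 and deacetylase list lies at the top (0.29) and MHC class II genes at the bottom (-0.34).

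Markers of other cells of the heart and immune genes were read next. Of 10 MHC class II genes none passed, and 4 lay lower (40%, all genes 8.94%) and 0 higher. The median was -0.34 (-0.27 without array 3, 0.06 in WT). The invariant chain Cd74 read 8.01, 8.04 and 8.48 untreated and 7.52, 7.23 and 7.34 treated (-0.81, SE 0.17, adjusted p = 0.0689). H2-Ab1 read 8.43, 8.34 and 9.16 against 7.53, 7.31 and 8.03 (-1.02, adjusted p = 0.0714), and passed in the fit that blocks on mouse (adjusted p = 0.0373), as did Hbb-bt (0.0373). Of 27 macrophage and leukocyte markers none passed, 6 lay lower (22.2%) and 0 higher, with C1qa the smallest in p, and the median was -0.08. Without array 3 the counts were still 6 lower and 0 higher (all genes 7.32% and 7.65%), and C1qa passed. In that fit, 13 of the 27 lay above 0 and the median was -0.03. These are markers of immune cells, of which 9 of 36 measured were too dim to test. The mean of the macrophage list, relative to its mean over all arrays, was -0.07, -0.07 and 0.11 on the untreated and -0.24, -0.22 and -0.13 on the treated arrays, with WT arrays at -0.04 to 0.18. Chemokine Ccl5 read 7.96, 7.94 and 8.46 without Iso and 7.32, 7.40 and 7.33 with it (-0.77, adjusted p = 0.0620), and lay 0.55 higher with Iso in WT. Of 45 inflammatory genes 1 lay higher, the interleukin antagonist Il1rn (0.63, adjusted p = 0.0958), and 7 lower, and of 38 interferon-stimulated genes 3 lay higher and 6 lower (3 and 2 without array 3).

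The 26 endothelial markers had a median of -0.25, with 5 lower and 2 higher, and -0.08 without untreated array 3. Their mean stood at 0.10, 0.04 and 0.44 on the untreated arrays and 0.004, -0.16 and 0.08 on the treated ones, so array 3 was highest and the other arrays overlapped. Eng, a co-receptor of endothelium, read 5.39, 5.33 and 6.40 against 4.85, 4.46 and 4.74 (-1.03, adjusted p = 0.112, and -0.68 without array 3). Fabp4, which shuttles fatty acids in capillaries, lay the other way (0.66, 0.167, and 0.40 without array 3). Fibroblast and matrix genes had a median of -0.11, with 5 of 29 lower and 0 higher, and -0.07 without array 3, with 2 lower. The part of a change in cell mixture in the lists above was not tested.

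Differences in DKO also followed gene length. The 12023 protein-coding genes tested were split into 5 groups of equal size by the span of the gene in the RefSeq table (GRCm38.p6), from under 6.96 kb to over 65.2 kb. The median difference went from -0.11 in the shortest group through -0.05, 0.01 and 0.08 to 0.12 in the longest. The share with an unadjusted p under 0.05 and a higher value was 3.87% in the shortest and 18.3% in the longest group, and that with a lower value 18.0% and 2.33%. Across genes, which are not independent replicates, Spearman's rho of length and difference was 0.32, and 0.24 without untreated array 3. In WT the median was -0.03 in the shortest and 0.01 in the longest group, and rho was 0.09.

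Array by array, the longest group minus the shortest, as median deviation from each gene's mean, was -0.08, 0.004 and -0.29 on the untreated and 0.13, 0.17 and 0.07 on the treated DKO arrays. The 3 treated arrays thus lay above the 3 untreated ones, and untreated array 3 lay far below the rest. WT arrays read -0.06, 0.01 and 0.02 untreated and 0.06, 0.09 and -0.07 treated, which overlap.

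**Figure D4:**
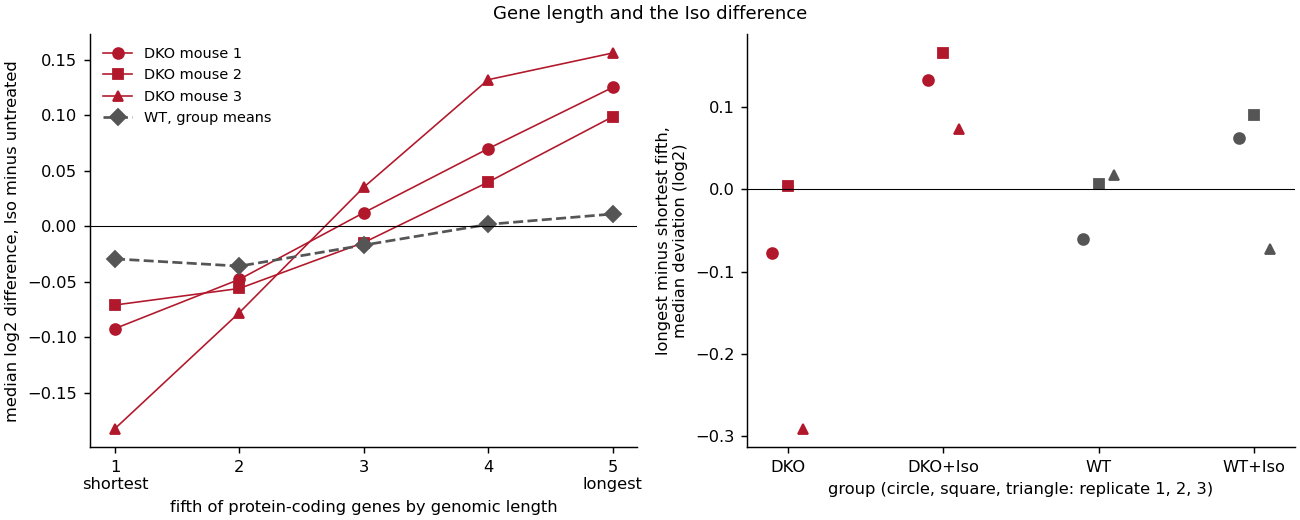
Left, median log2 difference, Iso minus untreated (vertical axis), by length group of protein-coding genes from shortest to longest (horizontal axis), within each DKO mouse and for the WT group means. Right, longest minus shortest group in log2 units on each array; the treated DKO arrays (0.07 to 0.17) lie above the untreated ones (-0.29 to 0.004).

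The lists differ in length, so each was also read after the length trend had been subtracted on each array, a setting chosen after seeing the data. Over all protein-coding genes 8.67% then lay higher and 9.01% lower at an unadjusted p under 0.05. Without untreated array 3 these shares were 6.7% and 7.59%. The long MEF2 and deacetylase genes (median 98.6 kb) had a median of 0.17 in place of 0.29, with 2 higher, and the calcium genes 0.04 in place of 0.11, with 7 higher and 3 lower. Sarcomere genes had 0.11, with 13 higher and 4 lower. The short mitochondrial ribosomal genes (7.69 kb) had -0.13, with 16 lower and 4 higher. Endoplasmic reticulum stress and heat shock genes (0.12, 10 higher and 2 lower) had nearly the median they had before. So did MHC class II genes (-0.32, 5 lower), and endothelial markers had -0.29. Of the passing protein-coding genes all 5 passed again, with Tcf20 at 0.90, Cpox at 1.33 and Sco2 at -1.21 (adjusted p = 0.0224 each), and Chid1 joined them (-0.97, 0.0343), for 6 genes or 0.0499% of those tested.

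Against WT, the spread of differences was larger in DKO, with an SD over genes of 0.32 against 0.23. In WT, 920 genes (6.7%) had an unadjusted p under 0.05 and 3 passed (0.0218%). The direct test of DKO minus WT found 1388 genes (10.1%) at an unadjusted p under 0.05, and 2 passed (0.0146%). Neither was among the 7 genes that passed in DKO. For these 7, the difference between genotypes ran from 0.74 for 1110002E22Rik to 2.30 for Gm26615 among the genes that rose, with an adjusted p of 0.102 to 0.394 over all 7. An Iso effect particular to DKO was thus not shown for any of them. Without untreated DKO array 3, 7 of 13737 genes passed limma's test of DKO minus WT. They included Ube2d1 (0.85 in DKO, -0.32 in WT, adjusted p = 0.0474) and Ccl5 (-0.60 and 0.55, adjusted p = 0.0481). None of the genes that passed in DKO with all arrays was among them.

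The 2 genes that passed the genotype test with all arrays, Mir5112 and Mir1932, were flat in DKO. Mir5112 read 7.45, 7.18 and 7.88 untreated and 6.96, 7.39 and 7.50 treated in DKO (-0.22, adjusted p = 0.659), and 5.73, 5.81 and 6.46 against 10.26, 10.08 and 10.56 in WT. Mir1932 read 4.08, 3.70 and 4.51 against 3.96, 3.91 and 3.57 in DKO (-0.28, adjusted p = 0.540), and its DKO groups overlapped as did those of Mir5112. The mature sequence of miR-1932 is shown, again with the seed in capitals. It is 1 of the 2 loci that passed the genotype test with all arrays.
miR-1932 (chr11:119390524-119390545, plus strand): gUUGCGGAcagcgcuaggucgg
Its seed is not shared with either arm of miR-210. In WT, Mir1932 went from 3.62, 3.80 and 3.84 to 5.95, 6.20 and 6.76.

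**Figure D5:**
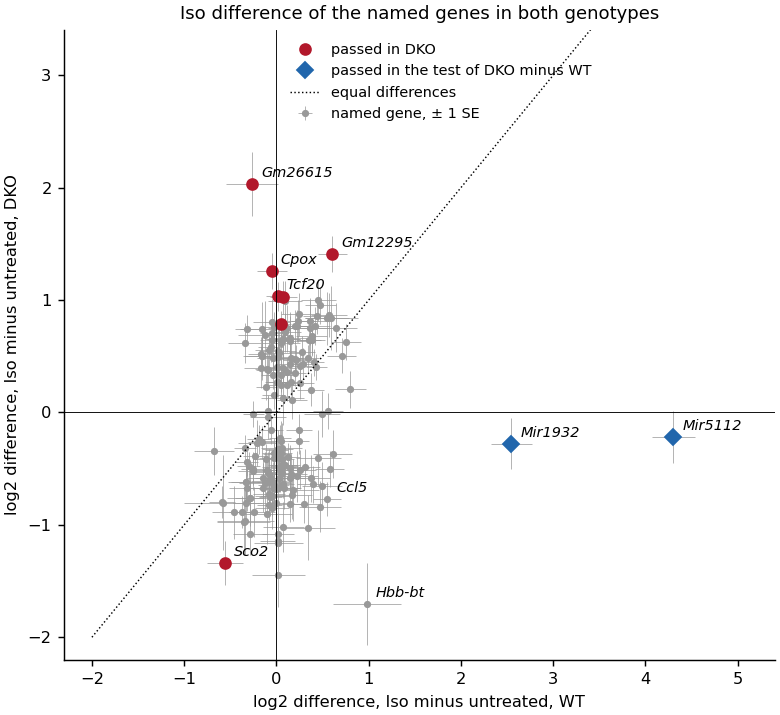
Log2 difference, Iso minus untreated, in WT (horizontal axis) and DKO (vertical axis) for the named genes, with bars of 1 SE and a dotted line of equal differences. Genes that passed in DKO (red) lie within 0.60 of 0 in WT, and Mir5112 and Mir1932 (blue) lie near 0 in DKO.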

How the data were processed

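Expression was measured on 12 arrays of cultured ventricular myocytes from 6 adult mice. RMA summarised the arrays, per the submitters' processing notes, and the deposited values are log2. The sources used here give neither array type nor RMA version, and raw array files were not used here. Sorted values of all arrays agree within 0.00187. Of 25428 probe sets, 24705 carried 1 gene symbol; for 1 symbol with 2 probe sets the brighter was used. Group means were fitted to the 13737 genes kept with limma 3.58.1 (R 4.3.3), eBayes and Benjamini-Hochberg adjustment. Each gene had 1 spread, shared by the DKO and WT groups. Passing means an adjusted p under 0.05. The number of arrays limits the precision. The script was tested on simulated data with noise independent between genes and arrays, and without a length trend or mouse effect.

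Pairing comes from the mouse number in the labels' characteristics, by which an untreated and a treated array come from each animal. Within pairs, deviations from the group mean had correlations of 0.00733, 0.0864 and 0.130 in DKO and of -0.0623, 0.0566 and 0.0109 in WT. The mouse was a block in the alternatives.

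Members and gene lists were chosen with earlier results of these data known. Named are all genes that passed in DKO or in the genotype test with all arrays, and the 10 with the smallest p in each direction. Added were up to 10 in each direction passing without untreated DKO array 3, up to 4 per list and a fixed set. Predicted genes are named only where they passed with all arrays. Lists are described by counts and medians without a test. Alternatives were other filters on dim genes, scalings, variance models, array weights, a fold threshold of 0.5 log2, the block, fewer arrays and each array left out. Chosen after seeing the data were removal of the length trend (loess, span 0.3) and a filter median over all probe sets.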

Additional observations from a re-analysis of the deposited data

Results flagged for a closer look

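In 2 genes the Iso difference itself differed between the genotypes in limma's test of DKO minus WT with all arrays. For Mir5112 it was -4.52 (SE 0.33, adjusted p = 7.9e-05), from -0.22 in DKO and 4.30 in WT, and for Mir1932 -2.83 (SE 0.32, adjusted p = 0.0064), from -0.28 in DKO and 2.55 in WT. In WT all 3 treated arrays lay above all untreated arrays for both, and in DKO the groups overlapped for both.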

How the results depend on the processing

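The count of 7 genes passing for Iso in DKO was 17 with no filter, 1109 with array weights (which gave untreated DKO arrays 1 to 3 weights of 2.61, 0.504 and 0.156), 0 when WT arrays were left out of the fit (1726 at an unadjusted p under 0.05) and 0 with a fold threshold of 0.5 log2 (132). Leaving out 1 array gave 0 to 605 genes: 2, 605 and 31 without untreated DKO array 1, 2 and 3, 0, 0 and 6 without treated DKO array 1, 2 and 3, 4, 4 and 2 without untreated WT array 1, 2 and 3, and 7, 8 and 5 without the treated WT arrays. Without array 3 it was 32 with the mouse block (12 of them among the 31), 31 with quantile normalisation, 23 with the length trend removed, and 41 without both arrays of mouse 3. With the mouse as a fixed block 10 genes passed, 4 of them among the 7, and as a random block 9, all 7 among them. The other scalings and filters gave 6 or 7.

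The count of 2 for DKO minus WT was 51 with array weights and 5 with the mouse as a fixed block. It was 7 without untreated DKO array 3, both with and without quantile normalisation, and 4 without both arrays of mouse 3. With the length trend removed, where microRNA genes are not part of the fit, it was 0 with or without array 3 (1165 and 1215 at an unadjusted p under 0.05). Leaving out 1 array gave 2 to 16.

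Signs turned for 10 named genes that did not pass. Camk2d (0.11) was -0.024 with array weights, -0.019 without mouse 3 and under the block without array 3, -0.069 under quantile normalisation without array 3, and -0.028 and -0.18 with the length trend removed, with and without array 3. Camk2g (-0.01) was 0.025 without mouse 3 and under the block without array 3, 0.098 under quantile normalisation without array 3 and 0.032 with the length trend removed without it. Crem (0.02) was -0.063 under the block without array 3 and without mouse 3, -0.066 under quantile normalisation without array 3, and -0.099 and -0.14 with the length trend removed. Nppb (-0.01) was 0.0034 with array weights, 0.036 under the block without array 3 and without mouse 3, 0.048 under quantile normalisation without array 3, and 0.11 and 0.093 with the length trend removed. Camta1 was -0.00027 with the length trend removed, Camk2n1 0.044 with it removed without array 3, and Mir1932 0.050 without mouse 3 and under the block without array 3. Over single arrays left out, Camk2d ran from -0.069 to 0.21, Camk2g from -0.22 to 0.098, Crem from -0.066 to 0.15, Per1 from -0.094 to 0.45, Fos from -0.092 to 0.23, Nppb from -0.067 to 0.045 and Myh7 from -0.13 to 0.088. The causes were not tested.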

Other observations

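Clock genes were not described above. Of 20 tested none passed in limma's test, 3 lay higher and 0 lower at an unadjusted p under 0.05, and the median was 0.11 (0.12 without untreated array 3, 0.01 in WT). The nuclear receptor Rora, which drives Bmal1, read 3.63, 3.76 and 3.75 untreated and 4.35, 4.31 and 4.41 treated (0.64, SE 0.13, adjusted p = 0.0615), and differed by -0.05 in WT. Its treated arrays all lie above its untreated arrays. The core factor Clock read 6.82, 6.97 and 6.04 against 7.25, 7.33 and 7.11 (0.62, adjusted p = 0.154), with untreated array 3 lowest, and differed by 0.33 without that array.

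Hif1a, the oxygen-sensitive factor that acts on Vegfa and Mir210, read 7.83, 8.01 and 7.15 untreated and 8.53, 8.56 and 8.30 treated (0.80, SE 0.20, adjusted p = 0.0913, and 0.55, adjusted p = 0.138, without untreated array 3). In WT it differed by -0.05.

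Proteasome subunits had a median of 0.08 with 8 of 35 higher and 3 lower, but -0.03 with 1 higher and 2 lower without untreated array 3. Psmd6 read 9.57, 9.68 and 8.54 untreated against 9.88, 10.07 and 10.06 treated (0.75, and 0.38 without that array).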
